A study of Mus musculus with 8 samples.

Results

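The regions described here are 280 autosomal domains in which H2A.X chromatin was called higher in TKO embryonic stem (ES) cells than in their control. They were chosen by the authors' own mark for the TKO library in the list that sets TKO control against TKO, on chromosomes 1 to 19. That list holds 2384 domains, of which 1989 on the same chromosomes carry the mark of the control library, and the 6 lists of the study hold 25499 domains. That this mark stands for TKO, as every direction below, rests on the order of the conditions in the list's name. Because the mark and its score chose the domains, both are given as description, with no test.

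The assay was native ChIP-seq on mouse ES cells: nucleosomes were released by micrococcal nuclease, pulled down by 0.5 µg of an anti-H2A.X antibody, and their DNA was sequenced. The TKO and TKO control cells and a second pair, TDG control and Tdg KD (knockdown, called TDG KD below), were of strain 129/Ola and grew in medium with 15% serum. The DNMT1 KO (knockout) cells in serum and the wild-type cells in 2i, PKCi and SRCi medium were of strain 129S6/C57B6, and their lists also draw on a serum library and a DNMT1 control library that enter here only through those lists. PKCi medium held 5 µM Gö6976, an inhibitor of protein kinase C, and SRCi medium held 1.5 µM CGP77675, an inhibitor of Src kinases, with 3 µM CHIR99021, an inhibitor of GSK3. There was 1 library per condition with no replicates, so every difference below is between libraries. TKO is not spelled out in the labels, which also do not say whether a line was 1 clone.

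H2A.X is a variant of the core histone H2A that lies throughout chromatin and is phosphorylated on its tail around DNA double-strand breaks. DNMT1 copies DNA methylation onto newly made strands, and TDG is a glycosylase that removes oxidised forms of methylated cytosine so that repair restores an unmodified base. ES cells in serum carry more DNA methylation than ES cells in 2i, a medium that inhibits the MEK and GSK3 kinases and holds cells in a naive state.

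The TKO-enriched domains were few and short. They covered 9868 kb, 0.409% of the autosomal kb, whereas the control-enriched domains of the list covered 28.8%. Their median length was 16 kb (quartiles 8 and 30 kb), against 217 kb for the control-enriched domains. At the short end, 17 were a single 1 kb bin and 39 were at most 5 kb long, and 25 reached 100 kb or more. A small number of long domains held much of the covered sequence: the 2 longest had 14.8% of it and the 10 longest had 30.5%. In mm9 coordinates the longest was at chr3:8505001-9415000, a stretch of 910 kb, followed by chr17:24438001-24986000 (548 kb), chr13:3367001-3595000 (228 kb) and chr4:146776001-146994000 (218 kb).

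The authors' signed score, which has no stated unit and falls toward the second library of each list, had a median of −4.28 over the 280 domains (quartiles −6.94 and −3.46). Many domains sat close to the limit of the call. Of the 280, 118 scored between −4 and −3, 42 scored −10 or lower and 15 scored −20 or lower. The weakest scored −3.005 and the control-enriched domain with the lowest score was at −1.98, with 0 autosomal domains of the list between −3 and −2. The zero of the score did not part the sides, since 1773 of the 1989 control-enriched domains also scored below 0, with a median of −0.567.

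Short domains held the most negative scores. The median score was −13.7 in the 39 domains of up to 5 kb, −4.45 in 127 domains of 6 to 20 kb, −3.68 in 69 of 21 to 50 kb and −3.67 in 45 longer ones. Over the 280 domains Spearman's rho of length and score was 0.55, a description, since both columns come from one call. The lowest score, −54.9, belonged to 1 kb at chr2:22444001-22445000. The next were 1 kb at chr5:15197001-15198000 (−43.6), 5 kb at chr9:35112001-35117000 (−38.2) and 1 kb at chr12:98299001-98300000 (−35.7). An exception among the long domains was chr11:3000001-3118000, 118 kb in length, which scored −29.4. The 2 longest domains stood at the weak end, with −3.05 on chromosome 3 and −3.16 on chromosome 17. The second deposited score, per kb, had a median of 0.654 in the TKO-enriched and 0.553 in the control-enriched domains.

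**Figure D1:**
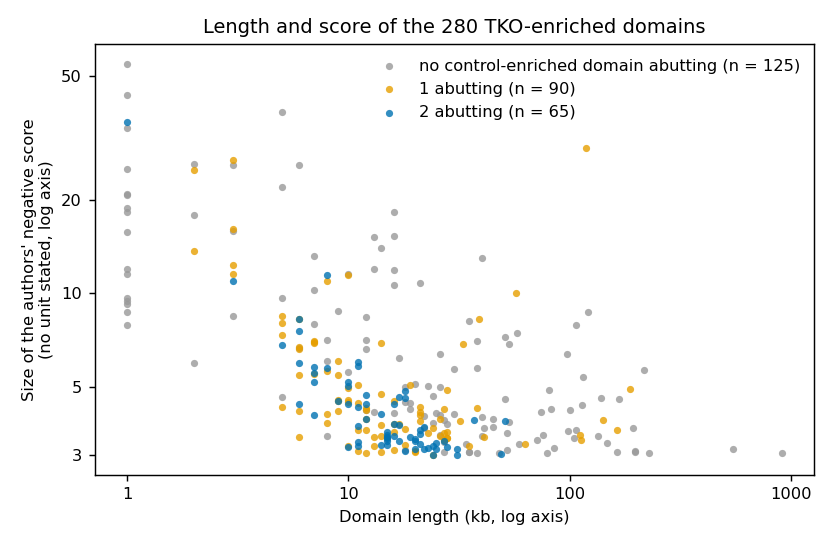
Each point is 1 of the 280 TKO-enriched domains, with its length in kb and the size of its negative score, which has no stated unit, both on log axes, coloured by how many control-enriched domains abut it. Scores reach furthest in domains of 1 to 5 kb, and most longer domains lie close to the limit of 3.

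A majority of the TKO-enriched domains touched control-enriched sequence. Domains of a list do not overlap, and 155 of the 280 (55.4%) directly abutted a control-enriched domain, 90 on 1 side and 65 on both. The 125 domains that abutted none had a median length of 24 kb and a median score of −5.02. Those with 1 such neighbour had medians of 13.5 kb and −4.19, and those enclosed on both sides had 15 kb and −3.73. Enclosed domains gathered on chromosomes 8 and 11, which held 31 of the 65. On chromosome 11, where control-enriched domains covered 97.1% of the sequence, 14 of 17 TKO-enriched domains were enclosed. Direct contact of opposite sides was rarer on the corresponding sides of the other lists, with 26 of 1470 DNMT1 KO domains (1.77%), 495 of 5984 domains higher in 2i than in serum (8.27%) and 96 of 426 TDG control domains (22.5%). Those sides differ in how much of the genome faces them, so these shares are given side by side only.

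Chromosome 8 had the most TKO-enriched domains, 41 of 280 (14.6%, 10.98 to 19.3% by a Wilson 95% interval) on 5.33% of the autosomal span. All such intervals here cover counting error only. That is 31.9 domains per 100 Mb, against 10.5 on the other autosomes together. Chromosome 17 followed with 22.8 per 100 Mb, then chromosomes 4 (16.4) and 7 (16.1), and chromosome 15 had the lowest density, 2.99. The domains on chromosome 8 were weak, with a median score of −3.58. Chromosome 8 was also cut into more control-enriched domains than any other autosome, 226, or 176 per 100 Mb, with a median of 148 kb. Whether the 2 densities share a source was not tested.

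**Figure D2:**
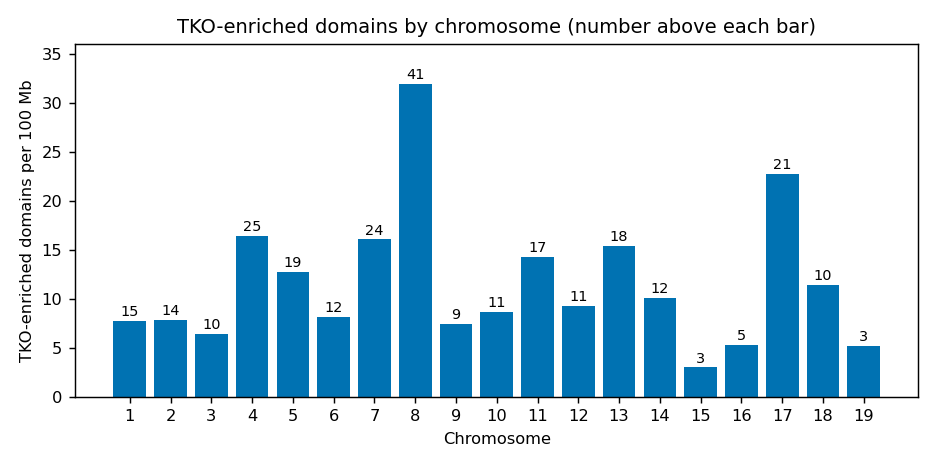
Bars give TKO-enriched domains per 100 Mb on each autosome, with the number of domains above each bar. Chromosome 8, with 41 domains, stands at 31.9 per 100 Mb, and chromosome 17, with 21, is next.

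A minority of the domains lay within 100 kb of another. How their spacing compares with an even spread at their density, 11.6 per 100 Mb, was not tested. Neighbours on a chromosome were a median of 4446 kb apart (range 27 to 64438 kb). Joined within 100 kb they formed 16 clusters with 34 domains (12.1%, interval 8.82 to 16.5%), on 8 chromosomes, and no cluster had more than 3. The count follows the joining distance: 0 domains were joined within 10 kb, 82 within 500 kb and 111 within 1 Mb.

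The 2 clusters of 3 domains were both on chromosome 4. One, chr4:146609001-146994000, held domains scoring from −15.3 to −5.64, and the other, chr4:3006001-3182000, held scores from −15.1 to −4.09. Within 1 Mb the first grew to 7 domains with 544 kb between them, at chr4:144962001-147228000. All 7 had DNMT1 KO as their side and, in the serum list, 2i. Of the 7, 6 had more kb in TDG control than in TDG KD domains, and 1, chr4:147146001-147228000, had 41 kb in each. Short pairs carried some of the lowest scores, such as 2 domains of 1 kb at chr5:15135001-15198000 (−34.0 and −43.6) and 2 domains at chr1:87485001-87523000 (−22.1 and −26.0). Pairs did not always match in the other lists: in 4 of the 16 clusters every domain had the same sides in all 5.

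Some of the domains lay at the ends of the listed sequence. The first listed base of the chromosome was the start of 8 of them. That base is where listed domains begin, so a TKO-enriched domain can itself set it, and the count is partly circular. It was 3000001 on chromosomes 11 and 17, but 3085001 on chromosome 12 and 3232001 on chromosome 16. Whether the 8 exceed a background was not tested. In all, 23 lay within 5 Mb of the first listed base and 12 within 5 Mb of the last, and each of those zones makes up 3.94% of the autosomal kb. The 118 kb domain on chromosome 11 is among the 8, as is chr17:3000001-3114000 (114 kb, −4.38).

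The other 5 lists did not enter the choice of domains. Whether the serum and DNMT1 control libraries behind some of them are separate from the TKO control library is not given in the labels. The directions of these lists rest on list names as well, and the 3 lists that name 2i may share its library. In each list one side covers less of the autosomes than the other, and it is called the minor side here: DNMT1 KO, 2i over serum, 2i over PKCi, 2i over SRCi and TDG control. A domain meets a side by at least 1 base, and it lies on the side that covers more of its kb. The background for meeting is the share of 16 kb autosomal tiles, the median length of the domains, that meet the same side.

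TKO-enriched domains met DNMT1 KO domains more often than tiles did. The TKO-enriched domains that met the DNMT1 KO side numbered 87 of 280 (31.1%, interval 25.9 to 36.7%), where 4.58% of tiles did. That side covered 32.7% of their kb and 3.68% of the autosomes. The DNMT1 control side was met by 89 (31.8%), below its tile share of 47.1%, and 108 met neither. The control-enriched domains of the TKO list ran the other way, with 59.0% of their kb in DNMT1 control domains and 1.94% in DNMT1 KO domains. The 87 DNMT1 KO domains involved were 5.92% of the 1470 on that side.

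DNMT1 KO scores over the kb shared with TKO-enriched domains were mostly beyond the median of the side's own domains. Of the 84 domains lying on the DNMT1 KO side, 70 had a DNMT1 score beyond the side's median of −6.56, and their own median was −10.98 (quartiles −27.4 and −7.05). The side's median counts each of its domains once, while the 84 values are means over covered kb. The 84 had a median length of 23 kb, beside 43.5 kb for the side's domains. Whether length plays a part was not tested. The 5 kb domain at chr9:35112001-35117000 had −131 in the DNMT1 list, from the 2 kb of it on the DNMT1 KO side. The 118 kb domain on chromosome 11 had −40.5 and the 218 kb domain on chromosome 4 had −26.3. On the DNMT1 control side the median was −2.63, beside −2.59 for that side. A score in another list is a mean over the kb that its domains cover, so the 4 domains that met both DNMT1 sides mix them.

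In the list of serum and 2i, TKO-enriched domains met the 2i side most often. It was met by 146 (52.1%, interval 46.3 to 57.9%), where 15.7% of tiles met it, and it covered 31.0% of their kb and 12.1% of the autosomes. The serum side was met by 66 (23.6%), beside 32.6% of tiles, and 84 met neither. At least 50% of the domain was on the 2i side in 98 of the 146. The median score of the 136 domains lying on the 2i side was −22.3, beside −20.2 for the side. The serum side's share of their kb, 19.6%, was 10.5% without the 2 longest domains. Control-enriched domains of the TKO list, which are longer, also met the 2i side often, at 926 of 1989 (46.6%). That side held 14.4% of their kb, beside 12.1% of the autosomes.

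Against the 2 inhibitor media, most TKO-enriched domains lay on the broad PKCi and SRCi sides, which cover most of the genome, though less often than tiles. PKCi was met by 167 (59.6%, tiles 76.7%) and SRCi by 165 (58.9%, tiles 78.6%). The opposite sides, higher in 2i, were met by 76 (27.1%, tiles 6.94%) and 81 (28.9%, tiles 7.63%). They covered 18.2% and 20.2% of the domains' kb, beside 6.53% and 7.29% of the autosomes. The 2i-over-PKCi score of the domains lying there had a median of 16.1, beside 15.1 for the side, and the 2i-over-SRCi score had 15.9 beside 15.8. These medians were thus near those of the sides, while the upper quartiles were higher. They were 21.1 beside 17.1 for 2i over PKCi, and 22.5 beside 17.8 for 2i over SRCi. Control-enriched domains of the TKO list had 9.34% and 10.6% of their kb on these 2 sides, also above the share of the autosomes.

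The TDG pair gave the smallest minor side. TDG control domains covered 0.278% of the autosomes and 14.5% of the kb of the TKO-enriched domains. They were met by 50 of the 280 (17.9%, interval 13.8 to 22.8%), where 0.535% of tiles met them. In return, 56 of the 426 TDG control domains (13.1%) met a TKO-enriched domain. TDG KD was met by 81 (28.9%), near its tile share of 31.4%, and 153 met neither side. The overlap was often partial, and 28 domains (10.0%) had at least 50% of their length on the TDG control side. The 48 domains lying on that side were long, with a median of 39.5 kb, and low in the TKO list, with a median score of −6.71. Their median TDG score was 9.84, beside 7.52 for the side, and 31 of the 48 were beyond it. Control-enriched domains of the TKO list had 0.148% of their kb on the TDG control side. TDG control and TKO control are separate samples of one strain, and whether they came from one culture is not given.

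**Figure D3:**
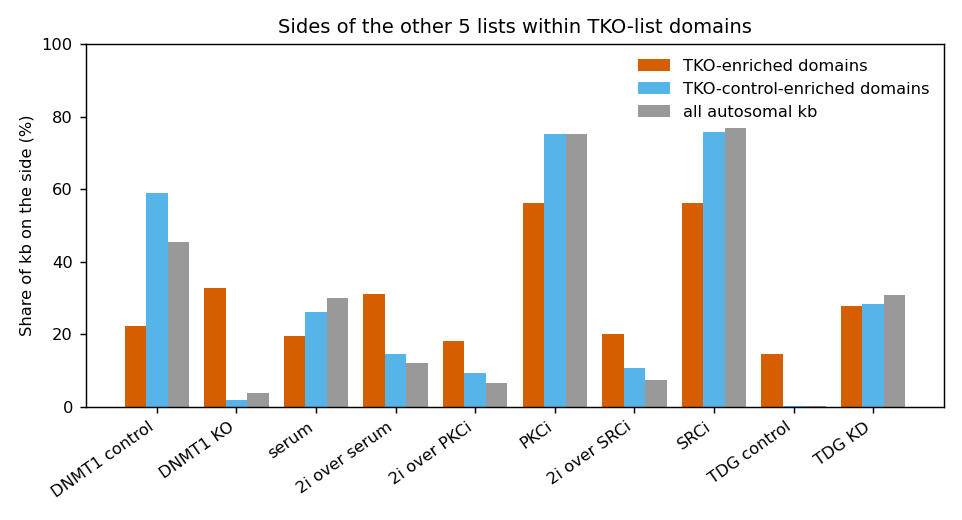
Bars give the percent of kb on each side of the other 5 lists, for the TKO-enriched domains, the control-enriched domains of the same list and all autosomal kb. The TKO-enriched bars stand above the autosomal ones on the 5 minor sides (DNMT1 KO, 2i over serum, 2i over PKCi, 2i over SRCi, TDG control) and below them on the 5 broad sides. The control-enriched bars also stand above the autosomal ones on 2i over serum, 2i over PKCi and 2i over SRCi, by less.

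Several minor sides often fell on 1 domain. By the number of lists in which a domain lay on the minor side, 129 of 280 (46.1%) had 0, 37 had 1, 27 had 2, 56 had 3, 11 had 4 and 20 (7.14%) had all 5. Of the 16 kb tiles, 82.1% had 0, 6.12% had 3 and 0.109% had all 5. Of the 1989 control-enriched domains, 61.5% had 0, 13.1% had 3 and 0.302% had all 5. The 56 TKO-enriched domains with 3 were 20% of the 280, and 19 of them were on chromosome 8. The TKO score went with the number of minor sides: its median was −3.99, −4.40, −4.45, −4.49, −8.27 and −8.47 for 0 to 5. Length was highest in the last group, with a median of 31.5 kb beside 14 kb in the first. The groups overlapped widely, and the 129 domains with no minor side reached −17.9.

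Domains on the TDG control side were mostly on other minor sides too. Of the 48, 44 lay on the DNMT1 KO side, some by a small part of their length. The 2i side of the serum list held 44 as well, and 42 (87.5%) had both. The same was true in part of TDG control domains at large: of all 426, 32.6% had both, and of the 370 that met no TKO-enriched domain, 25.4%. Median length was 6 kb both in the 370 and in all 426, beside 39.5 kb in the 48 TKO-enriched domains. Whether length sets the difference from the 48 was not tested. Of the 84 with DNMT1 KO as their side, 73 (86.9%) were on the 2i side of the serum list and 6 on the serum side, and of all 1470 DNMT1 KO domains 68.8% lay on that 2i side. Whether the serum and DNMT1 control libraries are one is not given in the labels.

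The 20 domains on all 5 minor sides lay on 10 chromosomes, and 6 were within 1 Mb of the first listed base. The longest, chr4:146776001-146994000, scored −5.64 in the TKO list, −26.3 in the DNMT1 list, −33.3 in the list of serum and 2i, 14.8 against PKCi, 15.9 against SRCi and 8.41 in the TDG list. The domain at the start of chromosome 11 was stronger in each, with −29.4, −40.5, −143, 94.8, 98.7 and 15.7 in the same order. A 35 kb domain at chr1:85243001-85278000 had −8.15, −41.7, −43.1, 23.9, 25.4 and 18.1, and a 2 kb domain at chr1:87521001-87523000 had −26.0, −56.6, −40.7, 21.1, 25.9 and 14.9. Among these 4 domains the order of strength differed between lists.

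The 129 domains on no minor side lay on broad sides or in no domain. The 2 longest of all were among them: the 910 kb domain on chromosome 3 lay on the DNMT1 control, serum, PKCi, SRCi and TDG KD sides, with scores of −2.82, −8.13, 4.49, 5.50 and 0.467. The 548 kb domain on chromosome 17 had the same sides, with −2.49, −8.35, 4.73, 5.21 and −0.0846. Of the 280, 5 met no domain of any other list, and the share of tiles meeting none was not computed. The PKCi side was met by 76.7% of tiles and the SRCi side by 78.6%. The 5 domains were 5 to 19 kb long: chr8:25858001-25877000 (−5.05), chr10:116539001-116551000 (−4.21), chr14:100504001-100515000 (−3.73), chr10:13116001-13126000 (−5.01) and chr19:45568001-45573000 (−7.31). The domains thus differed among themselves, with 67 different combinations of sides, and 70 of the 280 met a domain in all 5 lists. The share of tiles meeting a domain in all 5 was not computed either.

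**Figure D4:**
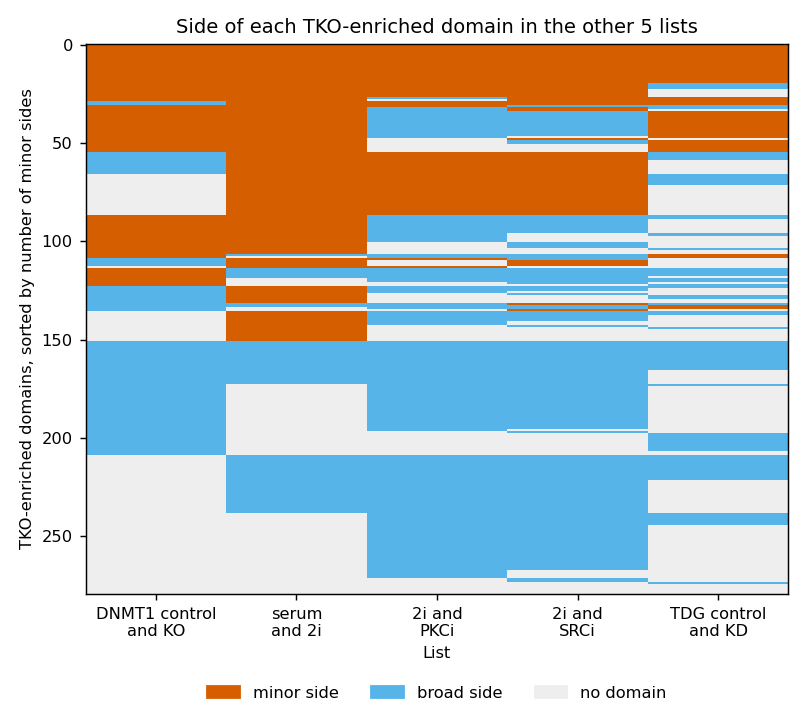
Each row is 1 of the 280 TKO-enriched domains and each column 1 of the other 5 lists. Orange marks the minor side (DNMT1 KO, 2i over serum, 2i over PKCi, 2i over SRCi, TDG control), blue the broad side and pale grey no domain; rows are sorted by the number of minor sides, from the 20 with 5 at the top to the 129 with 0.

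**Figure D5:**
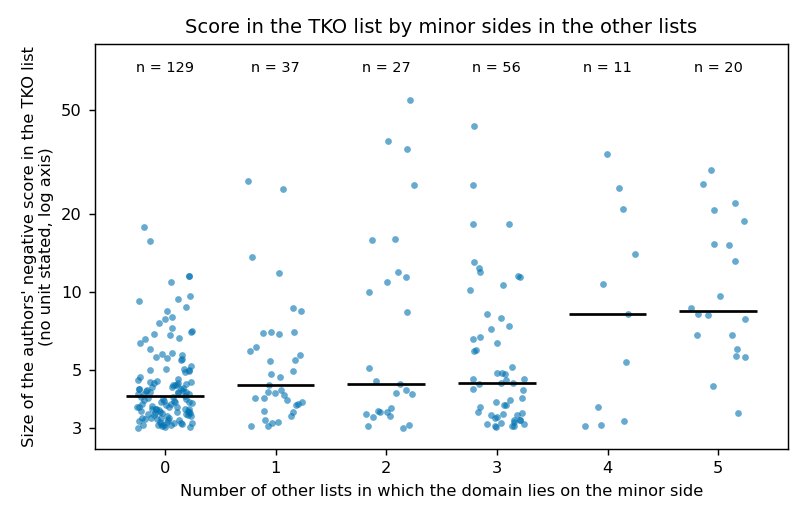
Each point is 1 TKO-enriched domain, placed by the number of other lists in which it lies on the minor side and by the size of its negative TKO score (no stated unit, log axis); black lines are medians. The medians of the groups with 4 and 5 minor sides are 8.27 and 8.47 in size, above the 3.99 of the group with 0, and the groups overlap.

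On chromosome 8 the domains followed the chromosome in the lists that name 2i. The lists that name 2i mark most of chromosomes 6 and 8 as higher in 2i, with 65.6% of chromosome 8 over serum, 58.4% over PKCi and 64.0% over SRCi. Of the 41 domains there, 31 (75.6%), 23 (56.1%) and 25 (61.0%) met those sides. By kb, those sides held 69.6%, 57.3% and 61.9% of the 41 domains, close to the share of the chromosome itself. The DNMT1 KO side, on 2.19% of chromosome 8, was met by 3 of the 41 (7.32%), with 3.44% of their kb. The TDG control side, on 0.157% of chromosome 8, was met by 1 of the 41 (2.44%), with 0.128% of their kb. Of the 61 domains on the 2i side in all 3 lists that name it, 22 were on chromosome 8.

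Chromosomes 6 and 8 are mostly covered by sides higher in 2i, and chromosome 11 by TKO control, and leaving out these 3 chromosomes left 210 domains. The DNMT1 KO side was then met by 80 (38.1%), the 2i side of the serum list by 101 (48.1%) and the TDG control side by 47 (22.4%). The sides higher in 2i than in PKCi and SRCi were met by 42 (20%) and 46 (21.9%). By kb, these 5 sides covered 35.8%, 26.0%, 15.4%, 13.0% and 14.5% of the 210 domains in that order, and 3.63%, 4.94%, 0.295%, 0.300% and 0.308% of the remaining autosomes. The share of kb on each minor side was thus above that of the autosomes without the 3 chromosomes as well.

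Borders were shared as well as sides. A domain edge of the DNMT1 list lay within 5 kb of an edge of 109 TKO-enriched domains (38.9%), beside 12.6% of the control-enriched domains. The serum and 2i list did so for 91 (32.5%, beside 17.0%), the PKCi list for 61 (21.8%, beside 8.30%), the SRCi list for 53 (18.9%, beside 8.75%) and the TDG list for 60 (21.4%, beside 5.78%). Control-enriched domains are longer and have as many edges each, so the shares are per domain.

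Some intervals were identical to the base. The DNMT1 list held 42 TKO-enriched domains with both edges unchanged, 28 of them as DNMT1 KO and 14 as DNMT1 control. The TDG list held 26, with 16 as TDG control and 10 as TDG KD, and the 3 lists that name 2i held 3, 2 and 4, all on the 2i side. The 28 identical DNMT1 KO domains had a median of 9 kb and ran from 1 to 218 kb, the longest being chr4:146776001-146994000, which recurred as a TDG control domain too. Of the 1989 control-enriched domains, 40 recurred in the DNMT1 list and 28 in the TDG list. What sets such common borders, which fall on a 1 kb grid, was not tested.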

How the data were processed

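The data were 6 lists of H2A.X domains, in each of which the authors compared 2 libraries. The submitters' processing notes name Bowtie2 2.0.6 and the mm9 build. The domain caller and its settings, and how library size was handled, are not given in the sources, so the depth behind each domain is unknown. The deposited columns hold a mark for the enriched library, a signed score and a second score, and both scores are the authors' own values, with no stated unit; here they serve as descriptions inside 1 list.

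TKO-enriched domains were those marked for the second library of the TKO list on chromosomes 1 to 19. Each other list was laid on a 1 kb grid. Meeting took at least 1 base, and a domain lay on the side covering more of its kb, with equal cover given to the first library. Scores in other lists are means weighted by kb. Tiles of 16 kb ran from the first listed base of each autosome. Clusters joined neighbours within 100 kb, and edges matched within 5 kb. Wilson 95% intervals cover counting error only. No test was run, since each condition had 1 library. Named regions were drawn from the 10 longest, the 10 with the score farthest toward TKO, the clusters with the most domains, the 5 longest on no side elsewhere and 10 on the most minor sides; the 2 short pairs of clusters named on chromosomes 1 and 5 were chosen after their values were seen. The members and rules were chosen with earlier results of these data known. The overlap functions were tested on simulated data. Python 3.11.15, numpy 2.4.6, pandas 2.3.3 and scipy 1.17.1 were used. No mm9 sequence or gene annotation was used here, so regions are given by position alone.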

Additional observations from a re-analysis of the deposited data

Results flagged for a closer look

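Outside the autosomes, the TKO list marked 33 more domains as higher in TKO, 24 on X, 8 on Y and 1 on the mitochondrial chromosome. They are not among the 280 and enter no count above, and they are named because they were called in data that the comparisons did not use. The mitochondrial domain spans the whole 16 kb of that chromosome in the list, and its signed score of −138.0 is lower than any of the 280. The DNMT1 KO, 2i over serum, 2i over PKCi and 2i over SRCi sides each covered 100% of that chromosome too, and TDG control 0%. Whether its score reflects H2A.X was not tested. The median score was −5.87 on X and −6.82 on Y, with lowest values of −37.0 and −81.0.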

How the results depend on the processing

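Of 103 alternative values over 40 results, 65 stayed within their Wilson interval (for counts, medians and shares of kb, within 1.5 times) and 38 did not; no set of replicates allowed a test. The 50% of domains with the strongest scores had a median score of −6.95, lower by construction, and a median length of 9 kb. Members in clusters numbered 15 among them, 0 when joined within 10 kb, 82 within 500 kb and 111 within 1 Mb. With at least 50% of the domain covered, the share on the minor sides was 10.0% (TDG control), 22.9% (2i over SRCi), 20.7% (2i over PKCi), 35% (2i over serum) and 23.6% (DNMT1 KO), and on broad sides 52.5% (SRCi), 53.6% (PKCi) and 16.4% (serum). Among the 50% of TKO-enriched domains with the strongest scores, it was 26.4% (TDG control), 37.1% (2i over SRCi), 35.7% (2i over PKCi), 60.0% (2i over serum) and 41.4% (DNMT1 KO). Against the 50% of domains of each other side with the strongest scores, fewer by construction, the minor sides had 12.1% (TDG control), 17.1% (2i over SRCi), 17.9% (2i over PKCi), 36.8% (2i over serum) and 25.7% (DNMT1 KO), and the broad ones 17.9% (TDG KD), 33.9% (SRCi), 30.4% (PKCi), 11.1% (serum) and 13.2% (DNMT1 control). Without chromosomes 6, 8 and 11 it was 71.0% (SRCi), 21.9% (2i over SRCi), 71.9% (PKCi), 20% (2i over PKCi) and 38.1% (DNMT1 KO); the cause was not tested. Edges within 1 kb numbered 49 in the serum and 2i list, 31 in the PKCi list and 34 in the SRCi list. An alternative chosen after seeing the data, without the 2 longest domains, gave 10.5% of kb on the serum side. The form of the score limits comparison between lists: score times length in kb was whole, within rounding, in 56.6%, 58.3% and 55.2% of domains of the 3 lists that name 2i, and in 0.212%, 1.03% and 0.413% of the TKO, TDG and DNMT1 lists.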
